A study of Mus musculus with 60 samples.

Results

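The measurements concern what wild-type CD8 T cells transcribe after 24 h of antigen receptor and CD28 stimulation while interleukin 2 (IL-2) is blocked. The WT + anti-IL-2 24 h group comprised 4 libraries. Its naive OT-I CD8 T cells were stimulated for 24 h through CD3 and CD28. Anti-CD3 coated the plate at 10 µg/mL, anti-CD28 was in solution at 5 µg/mL, and a blocking antibody to IL-2 was present at 10 µg/mL. They were set against 11 WT 0 h libraries, from the same kind of cells collected without stimulation. The series has no group cultured for 24 h without stimulation, so stimulation and time in culture cannot be told apart. These 15 libraries, of 60 in the series, were chosen by their labels for genotype, treatment and time. Earlier results of these data were known when the groups and the gene lists were chosen. A further 5 libraries, the WT 24 h group, had the same stimulation without anti-IL-2 and serve as a second comparator. All 20 were from Sh2b3+/+ mice of the NOD strain, which develops autoimmune diabetes. OT-I is a transgenic T cell receptor, so that nearly all T cells of such a mouse recognise the same ovalbumin peptide. Spleens were the source, and unwanted cells were removed by negative selection. The age of the mice and the pooling of animals are not given in the sources used here. Whether replicates were separate animals or cultures is not given in the labels. The p-values therefore reflect only the variation among these libraries, which may be technical.

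A naive T cell leaves quiescence when its antigen receptor and CD28 are engaged together. Within a day it enlarges, raises glycolysis, ribosome production and lipid synthesis, loses the receptors that keep it in lymphoid tissue, and enters the cell cycle. It also begins to make IL-2 and the high-affinity IL-2 receptor chain CD25 (Il2ra). IL-2 signals through the JAK1 and JAK3 kinases to the transcription factor STAT5. STAT5 drives feedback inhibitors of the SOCS family, including Cish, and supports survival and cytotoxic differentiation. An antibody against IL-2 removes that input and leaves the antigen receptor and CD28 signals in place.

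Total counts were 16109495 to 22313146 per WT + anti-IL-2 library and 15526874 to 34042737 per WT 0 h library, for 55414 genes. Levels are given as CPM (counts scaled to a common library size) after TMM scaling, so each is a share of a library and says nothing of RNA per cell. The library numbers in the labels fall into separate series, called sets here. The WT 0 h libraries came from set A (5 libraries), set B (2) and set C (4), the WT 24 h libraries from sets B (2) and C (3), and the WT + anti-IL-2 libraries from a set of their own. What a set shares is not stated. Set and treatment therefore cannot be told apart, and the results below centre on large changes seen against each 0 h set on its own. The summed level of 9 CD8 T cell markers was 2960 to 3162 CPM with anti-IL-2 and 6175 to 7271 CPM at 0 h, and all 9 were detected on both sides. Of 10 neutrophil markers, 7 were at 0 with anti-IL-2, where their sum stayed at or below 0.261 CPM, against at most 4.09 CPM at 0 h. Sh2b3, intact in all these animals, stood at 93.0, 80.2, 84.1 and 75.9 CPM with anti-IL-2 and between 66.9 and 97.0 CPM at 0 h (median 79.2 CPM), with groups that overlapped.

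A principal component analysis of wild-type libraries on their 500 most variable genes put 71.2% of the variance on the first component, where the 4 anti-IL-2 libraries lay at 42.0 to 47.5. The WT 0 h libraries lay at -35.7 to -30.9. The WT 24 h libraries were on the same side as those with anti-IL-2, with set B at 46.1 to 47.3 and set C at 27.2 to 32.5.

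**Figure D1:**
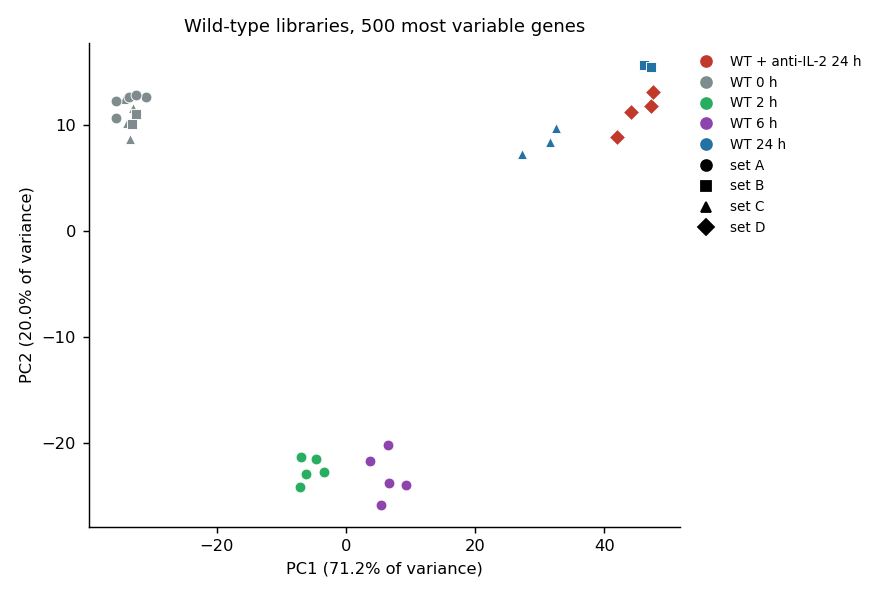
Principal components of the 500 most variable genes over the wild-type libraries, on log2(CPM + 1), with colour for the group and marker shape for the set of library numbers. The 4 WT + anti-IL-2 24 h libraries lie between 42.0 and 47.5 on the first component, far from the 11 WT 0 h libraries between -35.7 and -30.9, and the WT 24 h libraries of sets B and C lie apart from each other.

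Changes were called with edgeR's quasi-likelihood test at a Benjamini-Hochberg adjusted p under 0.05 over 14157 genes. Each log2 fold change below is WT + anti-IL-2 24 h over WT 0 h unless another pair is named, and is followed by its standard error. The difference was broad: 9593 genes were called (67.8% of those tested). Of all genes tested, 4849 (34.3%) rose and 4744 (33.5%) fell, which is the background for the counts within gene lists. A rise or fall of at least 2-fold was called for 2387 (16.9%) and 2282 (16.1%) genes. A large change is used here for a gene that was called, and was at least 4-fold in the same direction against each of the 3 sets with an adjusted p under 0.05 each time. This left 794 rises (5.61%) and 547 falls (3.86%). In 1248 of these 1341 genes, which were chosen for their size, no anti-IL-2 library overlapped any 0 h library. Among all genes tested, 3607 (25.5%) lay wholly above the 0 h libraries and 3160 (22.3%) wholly below. These shares are the background for later statements on overlap. A test between the 3 sets at 0 h called 3284 of 11108 genes, and 173 of the 1341 were among them. Genes too low at 0 h, such as Spin4, were not in that test, so the rest of the 1341 were not all tested. Just inside the limit on the rising side were Wdr62, Lyar and Ran, with smallest log2 fold changes against a set of 2.00, 2.01 and 2.02. Just outside it stood Traip, Mms22l and Ranbp1, each below the limit and at 2.00 after rounding. On the falling side Klf3, Lpp and Tnfaip3 lay just inside, at 2.00, 2.01 and 2.02 in size, and Carns1, Slc9a9 and Appl2 just outside, at 1.97, 1.96 and 1.96.

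**Figure D2:**
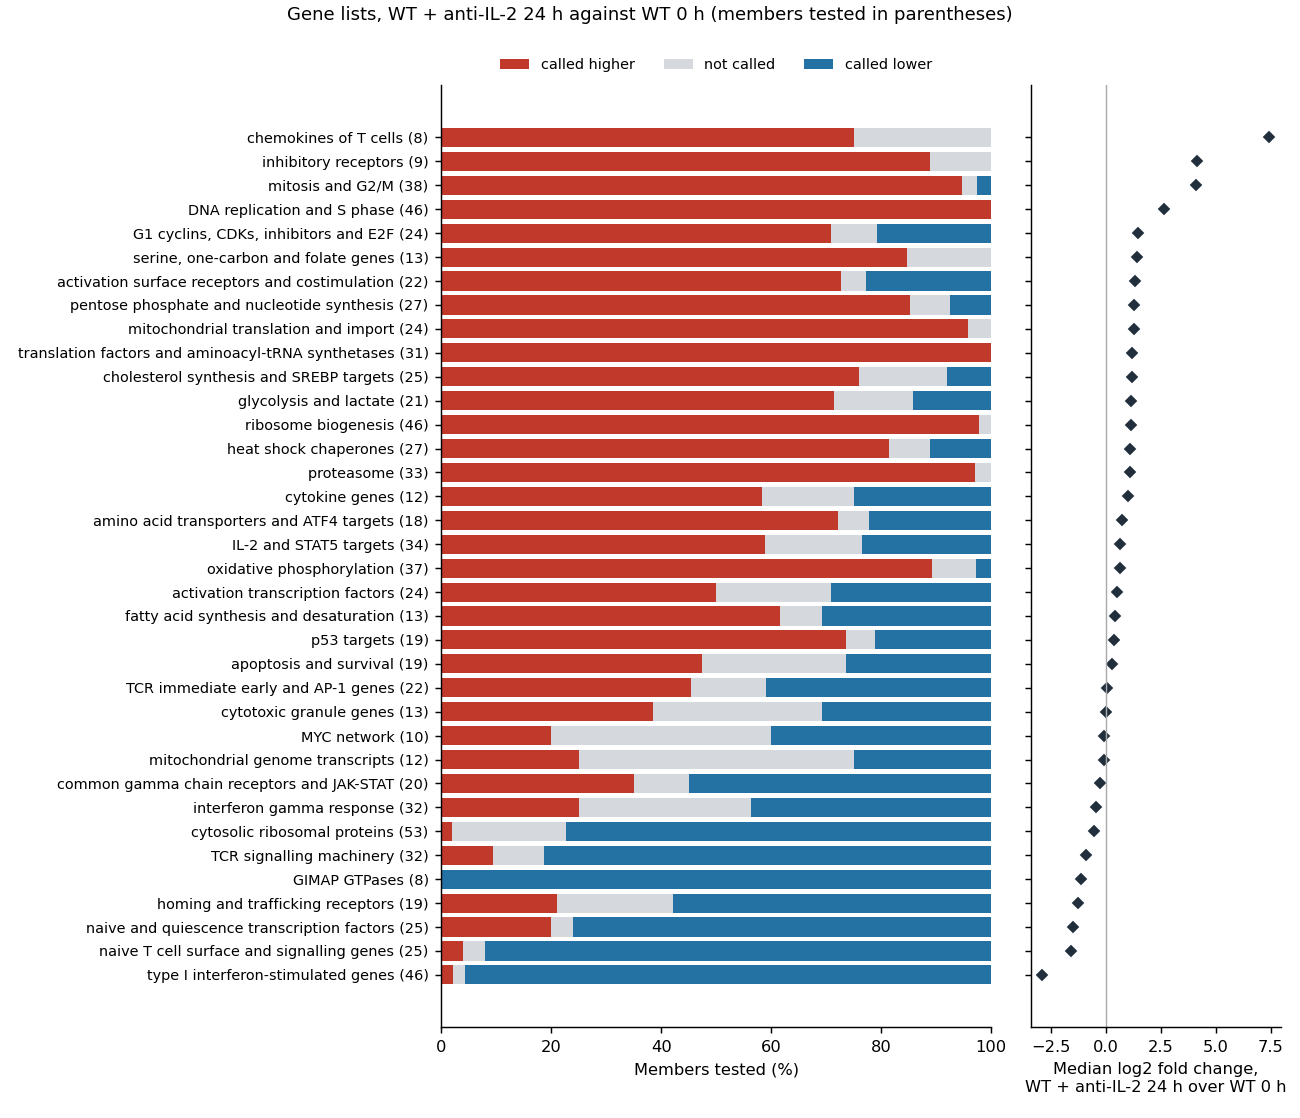
Share of tested members called higher, not called or called lower in WT + anti-IL-2 24 h against WT 0 h for 36 gene lists (left, percent, number tested in parentheses), and the median log2 fold change of each list (right). S phase, mitosis, ribosome biogenesis, translation and proteasome lists are nearly all called higher, and naive surface, GIMAP and type I interferon lists nearly all called lower, against 34.3% and 33.5% of all genes.

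The IL-2 system itself was induced. Il2 was read at 2.00, 6.53, 6.53 and 5.26 CPM in the anti-IL-2 libraries, 407 counts in all, against a single count over the 11 libraries at 0 h. The ratio was 1021, with an exact 95% interval of 182 to 40427 that covers counting error only. Il2ra stood at 215, 199, 241 and 217 CPM with anti-IL-2, against a lowest, median and highest value of 2.39, 4.04 and 5.82 CPM at 0 h. Every stimulated library was therefore far above every resting one, and Il2ra rose by 5.77 ± 0.12 on the log2 scale (adjusted p = 3.5e-21). Il2rb, the shared beta chain of the IL-2 and IL-15 receptors, already had 247 CPM at 0 h and rose by 0.72 ± 0.07 to 402 CPM (adjusted p = 9.3e-10). Of the 20 tested of 21 genes for common gamma chain receptors and JAK-STAT proteins, 7 rose and 11 fell. Stat5a rose (0.81 ± 0.07) while its neighbour in function Stat5b (-0.77 ± 0.06), the kinases Jak1 (-1.10 ± 0.08) and Jak3 (-1.03 ± 0.09) and the IL-7 receptor chain Il7r (-1.11 ± 0.15) fell.

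Genes that IL-2 drives through STAT5 moved in both directions. Of 34 tested of 36 on that list, 20 rose and 8 fell, with a median log2 fold change of 0.66 beside -0.03 over all genes. Several of the risers also answer to the antigen receptor: the survival gene Bcl2l1 (3.10 ± 0.11), the amino acid transporter Slc7a5 (1.66 ± 0.09), the costimulatory receptor gene Tnfrsf4 (3.05 ± 0.17) and Myc (0.98 ± 0.09). The inhibitor Cish was at 7.17, 8.62, 9.75 and 7.41 CPM with anti-IL-2 and at 1.67, 4.26 and 5.77 CPM (lowest, median, highest) at 0 h. The groups did not overlap, yet the rise was only 0.98 ± 0.23 (adjusted p = 5.0e-04). Socs1 did not pass the test, with 38.6, 33.4, 36.1 and 41.7 CPM within the 28.7 to 75.4 CPM at 0 h. Socs2 was too low to be tested, at no more than 1.22 CPM in any of the 15 libraries. Socs3 fell by 4.12 ± 0.28 on the log2 scale to 11.2 to 14.8 CPM, against 127 to 325 CPM at 0 h (adjusted p = 2.8e-09), and the survival gene Bcl2 fell by 1.92 ± 0.12 (adjusted p = 9.9e-13).

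Effector genes changed in both directions. Of 13 cytotoxic granule genes tested of 19, 5 rose and 4 fell, near the 34.3% and 33.5% of all genes tested. Gzmb, the protease granzyme B, reached 9.93, 15.4, 24.2 and 23.8 CPM with anti-IL-2 and was at 0 to 1.55 CPM at 0 h, a rise of 4.83 ± 0.43 (adjusted p = 9.0e-09). Its cytosolic inhibitor Serpinb9 rose by 3.07 ± 0.10. The granule membrane gene Nkg7 (-1.77 ± 0.10) and the cathepsin gene Ctsw (-1.46 ± 0.10) fell. Perforin (Prf1) and interferon gamma (Ifng) were called higher, at 0.30 ± 0.12 (adjusted p = 0.031) and 0.98 ± 0.42 (adjusted p = 0.043), with groups that overlapped. For Ifng the log2 fold changes against sets A, B and C were 0.40, 1.27 and 2.02, and for Prf1 they were 0.50, 0.18 and 0.14. The call for Prf1 ended without anti-IL-2 replicate 1, 3 or 4, and that for Ifng without replicate 3 or 4. The transcription factor genes Tbx21 (T-bet) and Irf4 rose by 2.72 ± 0.28 and 5.23 ± 0.33. Eomes fell by 0.58 ± 0.21 on the log2 scale (adjusted p = 0.023), with groups that overlapped and log2 fold changes of -0.76, -0.01 and -0.59 against sets A, B and C. That call ended without replicate 1, 2 or 3.

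Large changes are ranked here by the smallest of a gene's 3 log2 fold changes against the 0 h sets, where the higher group averaged 20 CPM or more. The first 12 rises in that order included several secreted and surface molecules. Xcl1, a chemokine that attracts cross-presenting dendritic cells, stood at 638, 698.5, 751 and 585 CPM with anti-IL-2 and at 0, 0.490 and 1.44 CPM (lowest, median, highest) at 0 h, a rise of 10.09 ± 0.35 (adjusted p = 2.1e-12). Ccl3 and Ccl4, which encode inflammatory chemokines, rose by 7.89 ± 0.20 and 6.96 ± 0.23, and Ccl9 by 10.46 ± 0.33. Ccl1 had 972 counts with anti-IL-2 and 0 in all 11 libraries at 0 h. Taking a floor of 3 counts over the 0 h group, 0.0149 CPM, its level was at least 813-fold higher. Of 8 chemokine genes tested of 9, 6 rose and the other 2 did not pass the test. Spin4, a member of the spindlin family, likewise had no count at 0 h and 19.8, 22.9, 26.4 and 25.9 CPM with anti-IL-2, at least 1598-fold higher. Klrc1 encodes the inhibitory receptor NKG2A. It had 2426 counts with anti-IL-2 and 1 at 0 h, a ratio of 6086 (exact 95% interval 1091 to 240489, counting error only).

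Other names among these rises span metabolism, signalling and adhesion. Bcat1, the cytosolic aminotransferase for branched-chain amino acids, had 102, 108, 130 and 122 CPM with anti-IL-2 and at most 0.362 CPM at 0 h (9.98 ± 0.25, adjusted p = 3.2e-18). Rgs16, which speeds the turn-off of G proteins, had 282, 300.0, 317 and 261 CPM with anti-IL-2 and 0.180 to 1.51 CPM at 0 h (8.84 ± 0.22). Chst2, a sulfotransferase gene, was the steadiest of the group, at 177 to 184 CPM with anti-IL-2 and at most 1.27 CPM at 0 h (8.21 ± 0.23). Mir155hg, the host transcript of miR-155, rose by 8.25 ± 0.29, Nrn1 (neuritin) by 9.46 ± 0.28, Alcam, a ligand of CD6, by 8.07 ± 0.31 and Wnt10b by 7.46 ± 0.28. For all 12 genes every anti-IL-2 library lay above every 0 h library.

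**Figure D3:**
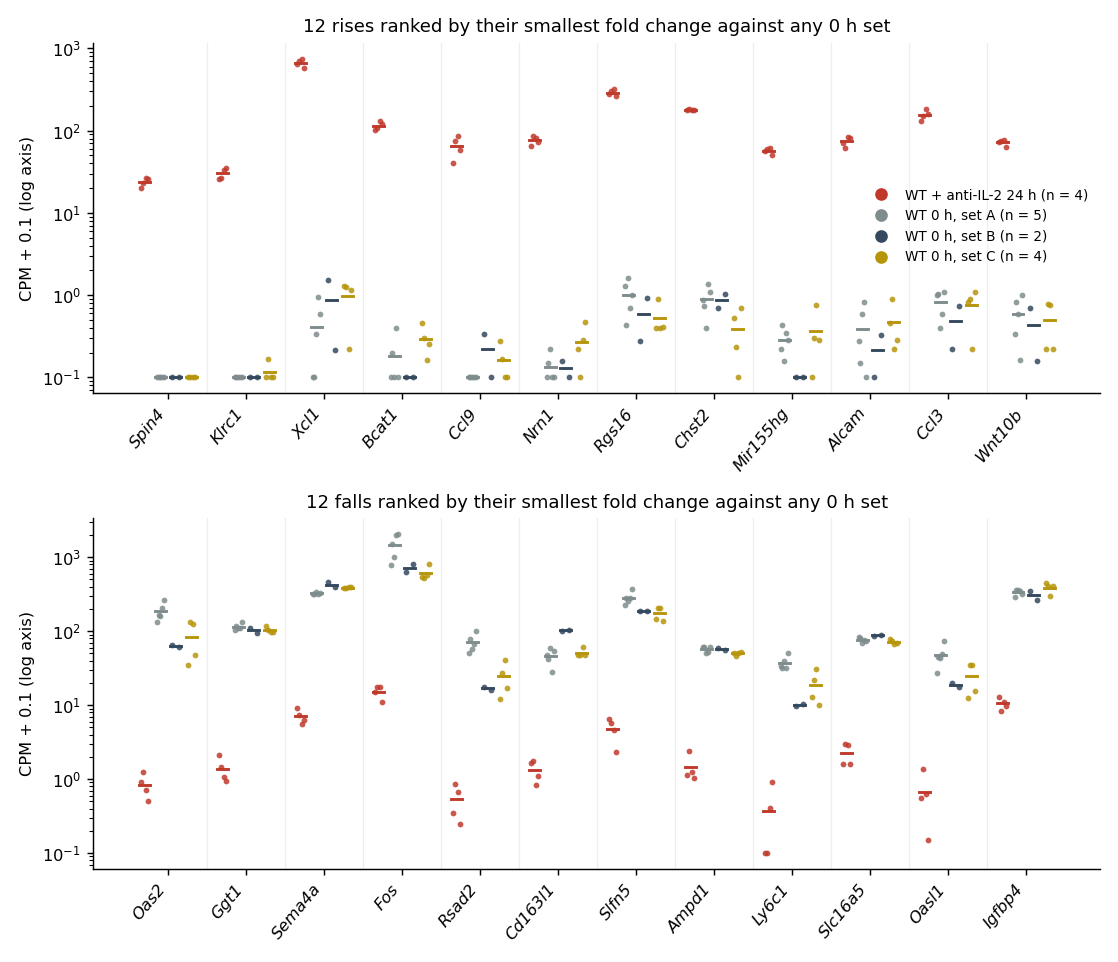
Levels in each library (points) and group means (bars) for the 12 rises (top) and 12 falls (bottom) ranked first by the smallest log2 fold change against any of the 3 WT 0 h sets, in WT + anti-IL-2 24 h and those sets, as CPM + 0.1 on a log axis. No anti-IL-2 library overlaps a 0 h library for any of the 24 genes, and set A of the 0 h libraries is the highest for Oas2, Rsad2, Oasl1 and Fos.

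Receptors of activated T cells rose as a group. Of 22 activation and costimulation receptor genes tested, 16 rose and 5 fell, and of 9 inhibitory receptor genes tested of 12, 8 rose and 1 did not pass the test (median log2 fold change 4.12). Tnfrsf9 (4-1BB) stood at 360, 358, 442 and 385 CPM with anti-IL-2 and at 2.78 to 12.0 CPM at 0 h (6.06 ± 0.24). Pdcd1 (PD-1) stood at 133, 151, 156 and 117 CPM with anti-IL-2 and at 1.09 to 4.09 CPM at 0 h (6.03 ± 0.21). Both genes separated the groups without overlap. Lag3 (5.93 ± 0.31), Cd200 (4.12 ± 0.16), the adhesion receptor Cd44 (4.47 ± 0.14) and Cd28 (2.71 ± 0.08) rose with them. The early activation marker Cd69 went the other way: it had 105 to 118 CPM with anti-IL-2 and a median of 292 CPM at 0 h (-1.55 ± 0.32, adjusted p = 6.2e-04). The size of that fall depended on the set, with log2 fold changes of -2.01, -1.24 and -0.85 against sets A, B and C.

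Among 24 activation transcription factor genes tested of 25, 12 rose and 7 fell, beside 34.3% and 33.5% of all genes tested. The NF-kappaB gene Rel had 323, 321, 362 and 318 CPM with anti-IL-2 and 58.5 to 66.7 CPM at 0 h, and was called higher. Nfkb1 (1.87 ± 0.07), the repressor Zeb2 (6.11 ± 0.38), Bhlhe40 (3.70 ± 0.22) and Irf8 (5.13 ± 0.25) rose. Batf, a partner of IRF4, did not pass the test, at 15.1 to 17.5 CPM with anti-IL-2 and 13.0 to 23.2 CPM at 0 h. Of 22 immediate early and AP-1 genes, 10 rose and 9 fell, with members of the Fos and Dusp families on both sides. The zinc finger genes Egr2 (3.50 ± 0.10) and Egr3 (2.57 ± 0.10) and the orphan nuclear receptors Nr4a3 (3.92 ± 0.12) and Nr4a2 (3.50 ± 0.22) rose to 94.1 CPM or more in each anti-IL-2 library. Fos had 14.99, 17.42, 17.23 and 11.01 CPM with anti-IL-2 and 526, 805 and 2033 CPM (lowest, median, highest) at 0 h (-6.05 ± 0.57, adjusted p = 3.0e-07). Jun (-5.42 ± 0.54), the phosphatase gene Dusp1 (-4.45 ± 0.51) and the mRNA-decay gene Zfp36 (-3.59 ± 0.29) fell with it.

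The 0 h level of these fallers depended on the set. Fos averaged 1469 CPM in set A, 717 CPM in set B and 615 CPM in set C, and Jun averaged 1225, 396 and 633 CPM in the same order. The near-identical heat shock genes Hspa1a and Hspa1b, between which reads can be split, varied more. Hspa1a had 0.251, 0.699, 1.04 and 0.200 CPM with anti-IL-2, while at 0 h it ran from 0.478 to 355 CPM with a median of 16.7 CPM. Its groups overlapped and it did not count as a large change, though it was called lower (-7.18 ± 2.06, adjusted p = 0.0070). Of the 27 genes of the chaperone list as a whole, 22 were higher and 3 lower, with the higher ones including the mitochondrial chaperone Hspd1 (2.76 ± 0.07). The part of cell isolation and handling in the 0 h levels of Fos, Jun, Dusp1 and Hspa1a was not tested.

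**Figure D4:**
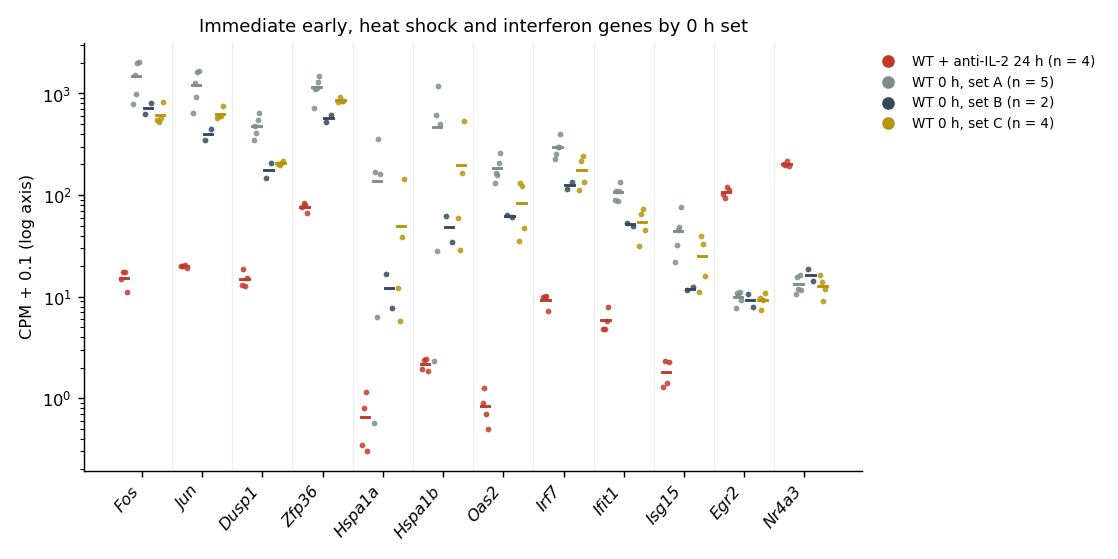
Levels in each library (points) and means (bars) in WT + anti-IL-2 24 h and in the 3 WT 0 h sets, as CPM + 0.1 on a log axis. Fos, Jun, Dusp1, Oas2, Irf7 and Isg15 are highest in set A at 0 h and lower still with anti-IL-2, Hspa1a overlaps between groups, and Egr2 and Nr4a3 are higher with anti-IL-2 and differ less across the 0 h sets.

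The machinery for making protein was raised nearly throughout. Of 46 ribosome biogenesis genes, 45 rose and 1 did not pass the test (median log2 fold change 1.13), including Ncl (nucleolin), which had 2502, 2636, 2745 and 2793 CPM with anti-IL-2 and 634 to 795 CPM at 0 h (1.87 ± 0.06). Nolc1 (1.90 ± 0.06), Npm1 (1.74 ± 0.08) and Nop2 (1.69 ± 0.06) followed. All 31 tested genes for translation factors and aminoacyl-tRNA synthetases rose (median 1.18), among them Iars (1.83 ± 0.06) and Eif5a (1.76 ± 0.06). The ribosomal proteins themselves did not follow. As shares of the library, 41 of 53 cytosolic ribosomal protein genes fell and 1 rose, with a median of -0.53. Reads of these genes can be split with near-identical pseudogenes, which the sources used here do not address. Rps27 was the steepest named, with 421 to 677 CPM with anti-IL-2 and 1442 to 1994 CPM at 0 h (-1.62 ± 0.11). Scaling by library totals alone, which moves the median of all genes from -0.03 to 0.09, left 37 lower and 5 higher. Of 33 proteasome genes, 32 rose (median 1.10). Myc itself rose by 0.98 ± 0.09 (1.10 when scaled by library totals), with log2 fold changes of 0.83 against set A and 1.18 against set C. Of 10 genes of its network tested of 11, 2 rose and 4 fell.

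Most metabolic genes rose, with named exceptions. Of 21 glycolysis genes, 15 rose and 3 fell. Hk2, the inducible hexokinase, had 76.4, 73.9, 72.1 and 73.0 CPM with anti-IL-2 and 0.850 to 4.15 CPM at 0 h (4.89 ± 0.22). Tpi1 (2.65 ± 0.07), Pgk1 (2.09 ± 0.08) and Gapdh (1.82 ± 0.07) rose, while the glucose transporter Slc2a3 fell (-1.03 ± 0.09). Of 27 genes for the pentose phosphate pathway and nucleotide synthesis, 23 rose, among them the ribonucleotide reductase subunits Rrm2 (4.94 ± 0.13) and Rrm1 (3.30 ± 0.09). In the serine and folate list 11 of 13 tested (of 15) rose, with Shmt1 at 3.18 ± 0.07 and Psat1 at 2.46 ± 0.09. Asns, asparagine synthetase, had 585 counts with anti-IL-2 and 3 over the 11 libraries at 0 h. That is a ratio of 489 (exact 95% interval 167 to 2379, counting error only). Of 37 oxidative phosphorylation genes 33 rose, with a median log2 fold change of 0.62 over all 37. Of 24 genes for mitochondrial translation and import 23 rose, with a median of 1.27 over all 24. Transcripts of the mitochondrial genome split 3 to 3 among 12 tested.

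Cholesterol synthesis genes and other SREBP targets rose in 19 of 25 cases and fell in 2. Idi1 (3.57 ± 0.14), Cyp51 (3.25 ± 0.12) and Sqle (2.44 ± 0.11) changed most among those named. Hmgcs1, which makes the precursor of mevalonate, had 125, 135, 141 and 155 CPM with anti-IL-2 and 26.5, 34.9 and 60.6 CPM (lowest, median, highest) at 0 h (1.90 ± 0.15). Its promoter holds the core letters of a sterol response element. It is shown here as the 250 bases before the RefSeq start (chr13:119690101-119690350, GRCm38.p6, plus strand), with the letters TCACCCC in capitals.
Hmgcs1: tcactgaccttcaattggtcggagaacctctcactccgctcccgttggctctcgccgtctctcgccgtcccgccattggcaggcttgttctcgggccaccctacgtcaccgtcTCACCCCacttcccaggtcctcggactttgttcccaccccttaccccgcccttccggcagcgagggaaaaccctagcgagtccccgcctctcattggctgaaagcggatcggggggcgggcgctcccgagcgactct
These letters, on either strand, were present in 2 of 17 promoters of the list that were in the RefSeq table (11.8%) and in 4.09% of all 27025 promoters, whereas CCAAT, which NF-Y binds, was present in 16 of the 17 (94.1%) and in 34.5% of all.

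Cell cycle genes rose nearly throughout. All 46 genes of the S phase list were tested and called higher, 30 of them as large changes, with a median log2 fold change of 2.63. Of 38 mitosis genes 36 rose, 32 of them as large changes, with a median of 4.11. Uhrf1, which maintains DNA methylation behind the replication fork, stood at 421, 492, 532 and 531 CPM with anti-IL-2 and at 14.6, 20.4 and 26.6 CPM (lowest, median, highest) at 0 h (4.57 ± 0.09, adjusted p = 3.5e-21). Mcm3, a subunit of the replicative helicase, rose by 3.04 ± 0.06, and the licensing genes Mcm10 and Cdc6 by 6.35 ± 0.29 and 5.93 ± 0.16. Ccnf, the F-box cyclin, had 37.2, 40.6, 41.3 and 47.6 CPM with anti-IL-2 and 0.721 to 2.26 CPM at 0 h (4.64 ± 0.17). Bub1 (5.42 ± 0.18), Cdk1 (5.32 ± 0.30), Mki67 (4.73 ± 0.23) and Top2a (4.31 ± 0.22) rose as well. Each of these named genes was higher in each anti-IL-2 library than in any 0 h library.

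Regulators of cell cycle entry changed in both directions. Of 24 tested of 25 cyclins, kinases, inhibitors and E2F genes, 17 rose and 5 fell. E2f1 (3.92 ± 0.15), Ccne2 (3.76 ± 0.14) and Cdk4 (1.56 ± 0.07) rose, and the inhibitors Cdkn2d (-2.26 ± 0.11) and Cdkn1b (-1.17 ± 0.07) fell. In the mitosis list the phosphatase gene Cdc25b was the only member called lower (-0.84 ± 0.11). The promoters of Uhrf1 (chr17:56303087-56303336, plus strand) and Ccnf (chr17:24251410-24251659, minus strand) are given as the 250 bases before the RefSeq start in GRCm38.p6, with the E2F letters TTCCCGC or TTGGCGC in capitals for Uhrf1 and the cell cycle homology letters TTTGAA or TTCGAA in capitals for Ccnf.
Uhrf1: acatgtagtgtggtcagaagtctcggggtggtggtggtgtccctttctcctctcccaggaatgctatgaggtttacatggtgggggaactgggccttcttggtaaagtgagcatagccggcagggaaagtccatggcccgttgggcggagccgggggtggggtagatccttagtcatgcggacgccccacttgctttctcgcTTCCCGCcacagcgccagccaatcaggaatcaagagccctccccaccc
Ccnf: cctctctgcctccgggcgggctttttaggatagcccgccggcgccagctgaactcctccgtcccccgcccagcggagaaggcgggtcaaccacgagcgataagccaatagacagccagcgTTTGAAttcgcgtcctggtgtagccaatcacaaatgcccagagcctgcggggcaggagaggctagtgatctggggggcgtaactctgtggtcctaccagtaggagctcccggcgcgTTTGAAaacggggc
E2F letters on either strand were present in 12 of 38 S phase promoters in the table (31.6%) and in 5.71% of all promoters. They were also present in 4 of 17 immediate early promoters (23.5%) and 6 of 41 ribosome biogenesis promoters (14.6%). Their share was 11.8% in the cholesterol list, 9.38% in the mitosis list and 5.56% in the type I interferon list. The cell cycle homology letters were present in 12 of 32 mitosis promoters (37.5%) and in 17.4% of all, but also in 12 of 36 promoters of the interferon-stimulated genes described further on (33.3%). CCAAT was present in 24 of the 32 mitosis promoters (75%). The letters TTGGCGC can share bases with CCAAT read on the other strand. A match is a run of letters only and says nothing of binding.

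The naive programme went down. Of 25 naive surface and signalling genes 23 fell and 1 rose (median -1.58), and of 25 naive and quiescence transcription factor genes 19 fell and 5 rose (median -1.49). Klf2, which keeps homing receptors on, had 95.8 to 127 CPM with anti-IL-2 and 839 to 1890 CPM at 0 h, with no overlap between the groups (-3.30 ± 0.25). Its target S1pr1 fell likewise (-2.53 ± 0.15). Tcf7 (-1.75 ± 0.06) and Lef1 (-1.95 ± 0.12), which hold the naive and memory state, fell without counting as large changes. Lef1 was at -1.74, -2.12 and -2.11 against sets A, B and C, so it missed the 4-fold limit only against set A. Ccr7, the receptor that guides naive cells into T cell zones, was the exception, at 446 to 511 CPM with anti-IL-2 and 301 to 382 CPM at 0 h (0.56 ± 0.07). Bach2, a repressor of effector genes, also rose (1.79 ± 0.07).

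Other receptors and signalling parts of the resting cell fell with them. Of 19 homing receptor genes tested of 21, 11 fell and 4 rose, among the fallers the integrin chain Itgb7 (-2.37 ± 0.08) and the gut homing receptor Ccr9 (-2.73 ± 0.14). All 8 GIMAP genes, GTPases of the resting lymphocyte, fell (median -1.14). Of 32 genes of the T cell receptor signalling machinery 26 fell and 3 rose, with Cd8b1 at -2.24 ± 0.08 and Cd247 (the zeta chain) at -1.86 ± 0.09. Rasgrp2, a Ras family exchange factor, had 29.1 to 38.7 CPM with anti-IL-2 and 602 to 738 CPM at 0 h (-4.27 ± 0.10). Of 7 gamma delta T cell markers, 6 were tested and all 6 fell, and the sum of the list was 124 to 142 CPM with anti-IL-2 and 438 to 868 CPM at 0 h. Trdc, the delta chain constant gene, made up most of that sum (-2.01 ± 0.19), and Il17a was at 0 in all 15 libraries. In bulk RNA, fewer cells of a type and less RNA per cell cannot be told apart.

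Several of the 12 falls ranked first by their smallest change against any 0 h set were in genes that interferon induces. Of 46 type I interferon-stimulated genes tested of 47, 44 fell, 25 of them as large changes, with a median of -2.90. Oas2, of the oligoadenylate synthetase family that senses double-stranded RNA, had 0.802, 1.17, 0.609 and 0.401 CPM with anti-IL-2 and a median of 131 CPM, and no more than 261 CPM, at 0 h (-7.40 ± 0.82, adjusted p = 1.6e-06). Rsad2 (viperin, -6.65 ± 0.93), Oasl1 (-5.89 ± 0.73), Slfn5 (-5.57 ± 0.37), Irf7 (-4.55 ± 0.44), Isg15 (-4.19 ± 0.68) and Ifit1 (-3.73 ± 0.43) fell in the same way. Here too the 0 h sets differed: Oas2 averaged 184 CPM in set A, 62.5 CPM in set B and 84.3 CPM in set C, and its log2 fold changes against them were -7.95, -6.39 and -6.83.

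Ifi208, a gene of the interferon-inducible PYHIN family, had the smallest adjusted p among list members whose promoter holds paired GAAA letters. It stood at 31.6, 22.8, 24.6 and 33.1 CPM with anti-IL-2 and at 199, 247 and 334 CPM (lowest, median, highest) at 0 h (-3.21 ± 0.17, adjusted p = 6.0e-12). Its 250 bases before the RefSeq start (chr1:173673415-173673664, GRCm38.p6, plus strand) are shown with the interferon response letters GAAANNGAAA in capitals.
Ifi208: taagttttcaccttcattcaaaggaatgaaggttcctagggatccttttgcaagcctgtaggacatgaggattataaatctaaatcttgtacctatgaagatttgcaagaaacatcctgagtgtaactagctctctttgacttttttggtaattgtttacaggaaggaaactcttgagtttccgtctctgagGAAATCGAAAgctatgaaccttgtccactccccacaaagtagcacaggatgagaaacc
This pattern, added after the values had been seen, was present on either strand in 17 of 36 promoters of the list (47.2%) and in 3.04% of all promoters. The other large falls were of varied function. Ggt1, a glutathione-cleaving enzyme of the cell surface, had 2.00, 1.34, 0.957 and 0.851 CPM with anti-IL-2 and 93.4 to 134 CPM at 0 h (-6.38 ± 0.17). Sema4a (-5.68 ± 0.15), Ampd1 (AMP deaminase, -5.32 ± 0.18), Slc16a5 (a monocarboxylate transporter, -5.13 ± 0.16) and Igfbp4 (-5.03 ± 0.16) had 0 h means that differed less between sets than those of the named interferon genes. Cd163l1, a scavenger receptor known from mouse gamma delta T cells, fell by 5.56 ± 0.45 on the log2 scale.

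Interferon gamma response genes were split, with 8 higher and 14 lower of 32 tested of 33. Of all genes tested, 34.3% were higher and 33.5% lower. The class I genes H2-K1 (-1.39 ± 0.10), H2-D1 (-1.39 ± 0.10) and B2m (-1.05 ± 0.09) fell. Gbp2, a guanylate-binding protein gene, rose by 1.70 ± 0.20 and Igtp by 0.72 ± 0.22. Tgtp1 did not pass the test (0.05 ± 0.23).

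The comparison with WT 24 h libraries asks which of these levels differ from those of libraries stimulated without anti-IL-2. It shares the 4 anti-IL-2 libraries with the comparison above. The set of these libraries holds no WT 24 h library, so set and IL-2 blockade cannot be told apart here either. The comparison also has its own difficulty: the WT 24 h libraries of sets B and C stood apart. Of 13273 genes tested, 239 (1.8%) were higher with anti-IL-2 and 345 (2.6%) lower. The count moved with single libraries. Leaving out anti-IL-2 replicate 1, 2, 3 or 4 left 167, 147, 145 or 173 calls, leaving out WT 24 h replicate 1, 2 or 3 (set C) left 343, 384 or 278, and leaving out replicate 4 or 5 (set B) gave 1077 or 1223. Scaling by library totals gave 286 higher and 270 lower. Of 42 genes discussed here that were called, 16 were called under every alternative. Among these 16, Cdc25b, Gimap7, Igtp, Irf1, Tgtp1 and Trdc were added after their values were seen. The count of 16 is therefore partly chosen from these data.

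Socs1 had the smallest adjusted p among the 42 called genes. It had 38.6, 33.4, 36.1 and 41.7 CPM with anti-IL-2, against 114, 106 and 107 CPM in WT 24 h set C and 137 and 119 CPM in set B, a log2 fold change of -1.67 ± 0.10 (adjusted p = 1.2e-05). Against WT 0 h the same anti-IL-2 libraries had not differed by the test. Socs3 was lower as well (-1.18 ± 0.19, adjusted p = 0.0061). Interferon gamma response genes moved with them: of 32 tested 20 were called lower, including Igtp (-1.12 ± 0.09, adjusted p = 1.9e-04), Tgtp1 (-1.35 ± 0.13) and Irf1 (-0.64 ± 0.09), whose values against each set alone had the same sign. Igtp had 184 to 226 CPM with anti-IL-2 and 373 to 488 CPM at WT 24 h. The shift was not limited to that list. Of 44 type I interferon-stimulated genes tested, edgeR called 15 lower and 0 higher, and DESeq2 called 23 lower. Among 8 GIMAP genes, 6 were called lower and 0 higher. Of 36 IL-2 and STAT5 targets tested, 8 were called lower, and edgeR called 0 higher, as against 1 at an unadjusted p under 0.05 and 1 with DESeq2.

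Cish and Gzmb were lower in every anti-IL-2 library than in any WT 24 h library, but their calls depended on the number of libraries. Cish stood at 22.3, 23.5 and 14.1 CPM in WT 24 h set C and at 69.1 and 76.9 CPM in set B, and no anti-IL-2 library exceeded 9.75 CPM. The log2 fold change was -2.33 ± 0.44 (adjusted p = 0.014), or -1.35 against set C and -3.13 against set B. Gzmb gave 9.93 to 24.2 CPM with anti-IL-2, against 49.4 to 56.4 CPM in set C and 283 and 390 CPM in set B (-3.19 ± 0.66, adjusted p = 0.023). Bcl2 was at -0.87 ± 0.19 (adjusted p = 0.025), with anti-IL-2 libraries that overlapped set C. Each of these 3 calls ended when any 1 of the 4 anti-IL-2 libraries was left out. Ifng was at -2.22 ± 0.58 (adjusted p = 0.0501) and Tbx21 at -1.01 ± 0.41 (adjusted p = 0.18), and neither passed the test. Il2ra, at 178 to 241 CPM in set C and 417 and 488 CPM in set B, was not called either (-0.50 ± 0.25, adjusted p = 0.28).

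**Figure D5:**
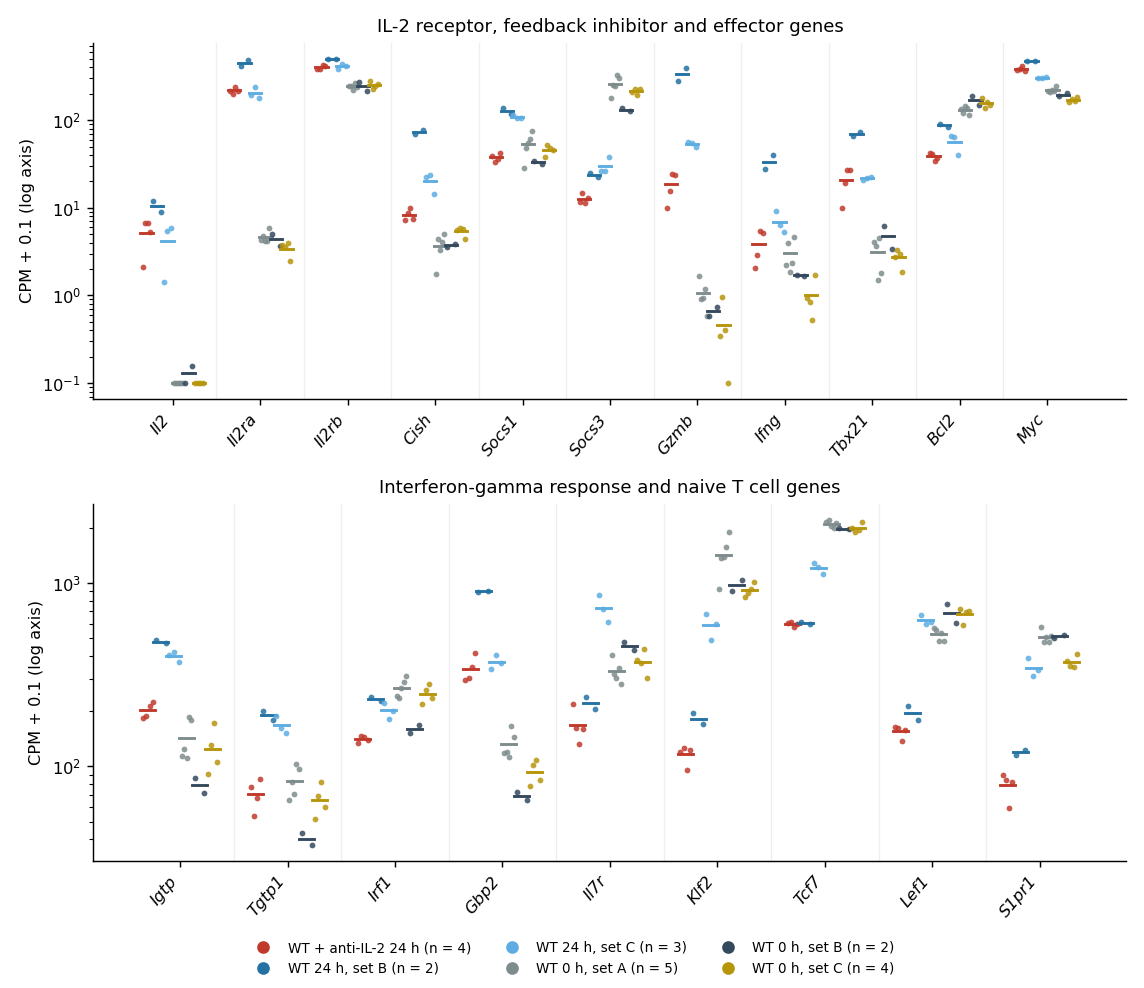
Levels in each library (points) and means (bars) in WT + anti-IL-2 24 h, in the 2 sets of WT 24 h and in the 3 sets of WT 0 h, as CPM + 0.1 on a log axis. Cish, Socs1, Socs3, Gzmb and Igtp are lower with anti-IL-2 than in every WT 24 h library, and for Klf2, Tcf7 and Lef1 the WT 24 h libraries of set C lie nearer to the 0 h libraries than those of set B do.

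Some genes raised over WT 0 h were also higher with anti-IL-2 than at WT 24 h. Xcl1 had 585 to 751 CPM with anti-IL-2 and 263 to 481 CPM at WT 24 h (0.81 ± 0.14, adjusted p = 0.0081). Rgs16 (1.11 ± 0.16), Mir155hg (1.28 ± 0.14), Nrn1 (0.91 ± 0.13) and Spin4 (1.36 ± 0.19) were higher with adjusted p-values between 9.6e-04 and 0.0034, and each kept its call under every alternative. Lower with the same stability were Ccr9 (-1.16 ± 0.20), Nkg7 (-0.86 ± 0.14), Cdc25b (-1.68 ± 0.25), Gimap7 (-0.95 ± 0.16), Cd163l1 (-2.48 ± 0.33) and Trdc (-0.96 ± 0.16). Naive-cell genes were lower too, in 9 of 25 surface and 8 of 25 transcription factor genes, but with unequal size against the sets, and 1 of the transcription factor genes, Bach2, was called higher (0.50 ± 0.12, adjusted p = 0.035). Il7r was at -2.20 against set C and -0.38 against set B, Klf2 at -2.42 and -0.63, and Lef1 at -2.09 and -0.31, and their calls ended when some single libraries were left out.

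Most of the changes called against WT 0 h had no call in this comparison. Of 46 S phase genes edgeR called 0 in either direction between anti-IL-2 and WT 24 h libraries, with 6 higher and 0 lower at an unadjusted p under 0.05 and 0 called by DESeq2. Of 25 cholesterol genes it also called 0, with 0 higher and 1 lower at an unadjusted p under 0.05 and 0 called by DESeq2. Of 53 ribosomal protein genes it called 0, but 14 were lower at an unadjusted p under 0.05 and DESeq2 called 3 lower. Of 38 mitosis genes it called 1, Cdc25b. A missed threshold does not show that these levels were equal. For the S phase gene Uhrf1 the log2 fold change was 0.37 over all WT 24 h libraries, -0.03 against set B alone and 0.71 against set C alone. Beside each other, the log2 fold changes over WT 0 h, which share the 11 libraries at 0 h, were 5.77 with anti-IL-2 and 6.27 at WT 24 h for Il2ra, 10.09 and 9.27 for Xcl1, 4.57 and 4.20 for Uhrf1, 0.98 and 3.33 for Cish, 4.83 and 8.07 for Gzmb, and -0.31 and 1.35 for Socs1.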

How the data were processed

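The deposited file holds whole-number read counts per gene, as deposited by the authors, with no normalization. Per the submitters' processing notes, FastQC 0.119.9, STAR 2.7.9a, SAMtools, Picard 2.42.2, Subread featureCounts 2.0.1 and the GRCm39 genome were used. The annotation and any use of strand are not given in the sources used here. Per the labels' protocols, polyA RNA was extracted with a Qiagen or a Zymo kit, without saying which for which library. Gene names came from GENCODE M21 and matched 52081 of 55414 IDs, which held 99.57% of counts. As that annotation is of GRCm38, no gene coordinates are given. Promoters are RefSeq sequences of GRCm38.p6.

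Genes were kept by edgeR's filterByExpr (minimum count 10) and scaled by TMM, and the quasi-likelihood test of edgeR 4.0.16 in R 4.3.3 was fitted to 4 WT + anti-IL-2 and 11 WT 0 h libraries, with p-values adjusted by Benjamini and Hochberg's method across every tested gene. A second fit gave each set of 0 h libraries its own level. WT + anti-IL-2 and WT 24 h libraries were fitted separately. DESeq2 1.42.0 served as an alternative. The procedure was tested on simulated data that held no differences between sets, so that test could not address the effect of the sets. No libraries were duplicates: the chi-square per degree of freedom was at least 6.88 between any pair at 0 h and 7.65 between any pair with anti-IL-2.

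The groups compared and the gene lists were chosen with earlier results of these data known. Genes named are the first 12 rises and 12 falls among the large changes, ranked by the smallest of the 3 log2 fold changes against the 0 h sets, with a mean of at least 20 CPM in the higher group and leaving out predicted genes, pseudogenes, antigen receptor segments and sex-linked marker genes, up to 5 members of each list by adjusted p, and a set of IL-2, effector and naive genes. Cdc25b, Cdc6, Cdk1, Cdkn1b, Dusp1, Gbp2, Gimap7, Hk2, Hmgcs1, Hspa1a, Hspa1b, Ifit1, Igtp, Irf1, Irf7, Isg15, Jun, Mcm10, Mki67, Npm1, S1pr1, Slc2a3, Tgtp1, Tnfrsf4, Tnfrsf9, Top2a, Trdc and Zfp36 were added after their values were seen. Some genes are not reported here.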

Additional observations from a re-analysis of the deposited data

Results flagged for a closer look

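Single libraries that lay far from the rest of their group, by Dixon's ratio of gap to range, were found for 7 of 158 genes with anti-IL-2 and 2 of 158 at WT 24 h. Chance flags about 1 in 20 groups. With anti-IL-2, Ampd1 had 2.33 CPM in replicate 2 and 0.951 to 1.13 CPM in the others, and Ccl1 had 19.45 CPM in replicate 3 and 8.52 to 10.4 CPM in the others. Replicate 3 was also high for Rel, at 361.9 CPM against 318 to 323 CPM, and for Zeb2, at 24.41 CPM against 19.0 to 19.8 CPM. Low values were those of Ccne2 in replicate 1 (30.03 CPM, others 40.3 to 42.3 CPM), and of Jun (18.93 CPM, others 20.04 to 20.19 CPM) and Irf7 (7.16 CPM, others 9.90 to 10.0 CPM) in replicate 4. At WT 24 h, Socs3 had 38.2 CPM in replicate 3 and 22.1 to 26.4 CPM in the others, and Bach2 had 350.3 CPM in replicate 2 and 243 to 263 CPM in the others.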

How the results depend on the processing

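No paired analysis was possible because the labels give no replicate numbers that the groups share. Against WT 0 h, 9593 calls became 4669 (2387 higher, 2282 lower) with a 2-fold minimum, and without a filter on low counts 7348 genes were higher. The 1341 large changes became 689 (464 higher, 225 lower) with a minimum of 8-fold and 3325 (1814 higher, 1511 lower) with 2-fold. Leaving out 1 anti-IL-2 library at a time gave 9084 to 9335 calls (4574 to 4732 higher, 4507 to 4603 lower) and 1358 to 1446 large changes (786 to 840 higher, 572 to 619 lower), of which 1245 to 1271 were among the 1341. Gene calls against WT 0 h reversed in 0 cases over these alternatives, and those of Prf1, Ifng and Eomes were lost under some. Against WT 24 h, 584 calls became 1344 (476 higher, 868 lower) with DESeq2, 1604 (851 higher, 753 lower) with set B alone and 3857 (1820 higher, 2037 lower) with set C alone. Leaving out 1 library of either group gave 145 to 1223 calls (56 to 407 higher, 89 to 816 lower). Log2 fold changes against WT 24 h that reversed with set B alone were those of Myc (-0.27), Bcl2l1 (-0.55), Ncl (-0.20), Rrm1 (-0.47), Shmt1 (-0.26), Psat1 (-0.32), Mthfd2 (-0.39) and Bub1 (-0.62). Those of Cdk1 (0.51), Top2a (0.75) and Ccnf (0.57) reversed with set C alone. The cause was not tested. Scaling by library totals turned the median of the MYC network list to 0.06 and that of mitochondrial genome transcripts to 0.06, against -0.06 and -0.07.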

Other observations

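Cytokine and survival genes showed further changes in WT + anti-IL-2 libraries against WT 0 h. Of 12 cytokine genes tested of 19, 7 rose and 3 fell. Tnfsf14 (LIGHT) rose by 3.32 and Tnfsf11 (RANKL) by 5.82 on the log2 scale, and the oncostatin M gene Osm changed by -2.05. Of 19 apoptosis and survival genes tested of 22, 9 rose and 5 fell, with the BH3-only gene Bcl2l11 (BIM) at 1.97. Of 18 amino acid transporter and ATF4 target genes tested of 22, 13 rose and 4 fell, with the transporter Slc1a4 at 4.48. Of 13 fatty acid synthesis genes tested of 14, 8 rose and 4 fell, with Acaca at 2.21 and Acss2 at -1.63. Of 19 p53 targets tested of 20, 14 rose and 4 fell, with Perp at 4.53 and Mdm2 at -0.61.

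Summed levels of markers of some other cell types were as follows. The B cell sum was 350 to 385 CPM with anti-IL-2 and 717 to 934 CPM at 0 h, mostly from Ighm. The NK cell sum was 35.5 to 54.9 CPM with anti-IL-2 and 43.7 to 88.0 CPM at 0 h, mostly from Eomes and Klrk1. The monocyte and macrophage sum was 5.66 to 9.38 CPM with anti-IL-2 and 8.87 to 16.3 CPM at 0 h, mostly from Cd68. The dendritic cell sum was 48.8 to 64.1 CPM with anti-IL-2 and 13.3 to 73.9 CPM at 0 h. Its highest member, Cd74, averaged 42.8 CPM with anti-IL-2 and 17.8 CPM at 0 h. Their part in the results was not tested.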
